A study of Mus musculus with 6 samples.

Results

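The transforming growth factor beta (TGF-beta) and activin family was followed through 10 genes measured by RNA-seq in mouse gonadal white adipose tissue (gWAT), a visceral depot attached to the reproductive organs. The 10 genes encode the ligands Tgfb1, Tgfb2, Tgfb3, Gdf3 and Gdf15, the activin subunits Inhba and Inhbb, the receptor Acvr1c and the ligand traps Fst and Fstl3. They were taken by NCBI gene identifier from a table of read counts on 19790 genes. The rule names the genes and uses no measured value, but the genes were picked with earlier results of these data known.

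Male wild-type C57BL/6 mice were fed a normal chow diet (NCD, 3 libraries) or a high-fat diet (HFD, 3 libraries) for 8 weeks. The sample labels give an age of 6 weeks at the start of feeding. The methods give another age. The labels name no transgene, deletion or drug in either group, and diet is the only labelled difference between them. The labels do not say that each library came from a separate animal, so the p-values measure the spread between these libraries, which may be technical in part.

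Ligands of this family are secreted dimers that bring together type I and type II receptor kinases. TGF-betas and activins then act mainly through SMAD2 and SMAD3, which move with SMAD4 to the nucleus. TGF-beta is secreted in a latent complex and has to be freed from it, whereas activins are held back by follistatin-type proteins that wrap around them. In fat, TGF-beta is known for driving matrix deposition by fibroblast-like cells, and the receptor ALK7, the product of Acvr1c, is known in adipocytes for restraining lipolysis.

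Each library held between 49575113 and 66360046 counts. Of the counts, 58.6%, 11.2% and 2.30% in NCD replicates 1, 2 and 3 fell on 11 seminal vesicle secretory genes, 7 of which had no count in any HFD library. Summed levels of 6 smooth muscle markers were 4470, 534 and 181 CPM (counts scaled to a library total) in the NCD libraries and 111 to 136 CPM on HFD. The labelled tissue was checked with 8 adipocyte markers, whose summed level was 4178, 14972 and 21129 CPM on NCD and 4601 to 7242 CPM on HFD. Cfd was the largest part of the NCD sums, at 1874, 6338 and 8816 CPM, and was at 392 to 1052 CPM on HFD. Adipoq was at 532, 1701 and 2694 CPM on NCD and at 1632, 1652 and 1139 CPM on HFD, so the sum does not stand for each marker. The summed level of 8 macrophage markers was 217 to 499 CPM on NCD and 1445 to 2225 CPM on HFD. NCD replicate 1 therefore stood apart from the other libraries, and the fold change of each member is given with it and without it. In whole tissue, fewer cells of a type and less RNA per cell cannot be told apart. CPM here are TMM-scaled, so each library total is adjusted by a factor that was 0.496 in NCD replicate 1 and 1.02 to 1.27 in the others.

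Gdf15 and Gdf3 rose on HFD with all 6 libraries, by 12.5-fold and 9.64-fold. Tgfb1 and Fstl3 were 3.03-fold and 2.37-fold higher with adjusted p-values just above the threshold of 0.05, and rose when NCD replicate 1 was left out. Inhbb was higher in every HFD library than in every NCD library, but missed the threshold of the main test both ways. Tgfb2, Tgfb3, Inhba, Acvr1c and Fst had overlapping diets with all libraries. No member fell in edgeR's quasi-likelihood test, adjusted over all genes by the Benjamini-Hochberg method. That test stands behind every adjusted p given unless DESeq2 is named.

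The stretches just before the start sites of Gdf15, Tgfb1 and Fstl3 are shown because these are members called higher on HFD, without NCD replicate 1 or in both fits, for which RefSeq's table on build GRCm38.p6 held a promoter. They run 5′ to 3′ on the gene's strand over the 250 bases before the start site, and capitals mark CAGAC, the half-site bound by SMAD proteins, on either strand (GTCTG on the printed strand). The Gdf15 stretch is chr8:70632457-70632706 on the minus strand, that of Tgfb1 is chr7:25686752-25687001 on the plus strand, and that of Fstl3 is chr10:79777024-79777273 on the plus strand.
Gdf15: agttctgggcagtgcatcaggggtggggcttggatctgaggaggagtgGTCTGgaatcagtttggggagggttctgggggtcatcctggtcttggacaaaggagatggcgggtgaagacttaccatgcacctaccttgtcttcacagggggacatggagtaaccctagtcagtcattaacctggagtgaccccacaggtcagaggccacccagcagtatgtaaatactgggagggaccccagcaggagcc
Tgfb1: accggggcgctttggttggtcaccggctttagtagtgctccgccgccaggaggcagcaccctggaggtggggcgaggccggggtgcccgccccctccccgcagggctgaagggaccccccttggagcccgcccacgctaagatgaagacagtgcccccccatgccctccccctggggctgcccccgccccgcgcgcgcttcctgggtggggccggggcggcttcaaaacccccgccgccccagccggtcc
Fstl3: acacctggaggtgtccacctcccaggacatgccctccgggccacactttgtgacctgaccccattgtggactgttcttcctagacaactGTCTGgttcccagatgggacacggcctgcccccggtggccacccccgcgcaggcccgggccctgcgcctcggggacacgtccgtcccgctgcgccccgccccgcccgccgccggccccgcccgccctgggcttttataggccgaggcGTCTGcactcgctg
The Gdf15 window shown held the half-site once, at -202, the Fstl3 window held it at -161 and -14, and the Tgfb1 window held none. RefSeq's table gives Gdf15 another start site, whose window (chr8:70632046-70632345, minus strand) held CAGAC at -116 and CCAAT at -6 and is not printed because it lies inside the gene. The windows searched ran from 250 bases before to 50 bases after the start, and those of Tgfb1 and the Gdf15 start shown were 77.0% and 57.0% G or C. Over the 9 such windows of the 7 members with an entry, 4 held CAGAC, against 49.6% of all 32851 windows of that length. CCAAT, bound by NF-Y, was in 2 of the 9, against 37.4% of all windows. TGANTCA (AP-1) and TGATGNAA (an ATF4 composite site) were in 0 of the 9, against 7.81% and 3.97%. Both strands were searched and no 2 matches overlapped. Such short matches are a description of the letters in these windows.

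Among the TGF-beta ligands, Tgfb1 (NCBI 21803, GRCm38 chr7:25687002-25705077), the isoform best known for its part in fibrosis and immune control, was at 16.5, 40.8 and 38.4 CPM in NCD replicates 1 to 3 and at 114, 80.5 and 95.3 CPM in HFD replicates 1 to 3. Every HFD library was above every NCD library. The means were 31.9 ± 13.4 and 96.7 ± 17.0 CPM (SD, n = 3 each), a log2 fold change of 1.60 (SE 0.368, edgeR adjusted p = 0.0535). Tgfb1 rose without NCD replicate 1, its lowest library, by a log2 fold change of 1.3 (SE 0.176, edgeR adjusted p = 0.00980). The exons of Tgfb1 shared no base with another annotated gene.

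Tgfb2 (NCBI 21808, chr1:186622787-186709697) was at 13.4, 5.62 and 3.85 CPM on NCD and at 3.78, 4.83 and 4.92 CPM on HFD. NCD replicate 1 was the highest library, and the other 5 lay close together. The log2 fold change was -0.75 (SE 0.487, edgeR adjusted p = 0.341), and -0.05 without that library. Tgfb3 (NCBI 21809, chr12:86056743-86079041) had the same highest library. Its levels were 84.7, 27.0 and 18.3 CPM on NCD and 35.4, 22.0 and 13.7 CPM on HFD. Its log2 fold change was -0.87 (SE 0.646, edgeR adjusted p = 0.40) with all libraries and 0.08 (SE 0.404) without NCD replicate 1. NCD replicate 1 also had the highest smooth muscle and epithelial marker sums, the latter 1151 CPM against 15.7 to 114 CPM in the others. The part of these markers in the Tgfb2 and Tgfb3 levels was not tested beyond leaving the library out.

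**Figure D1:**
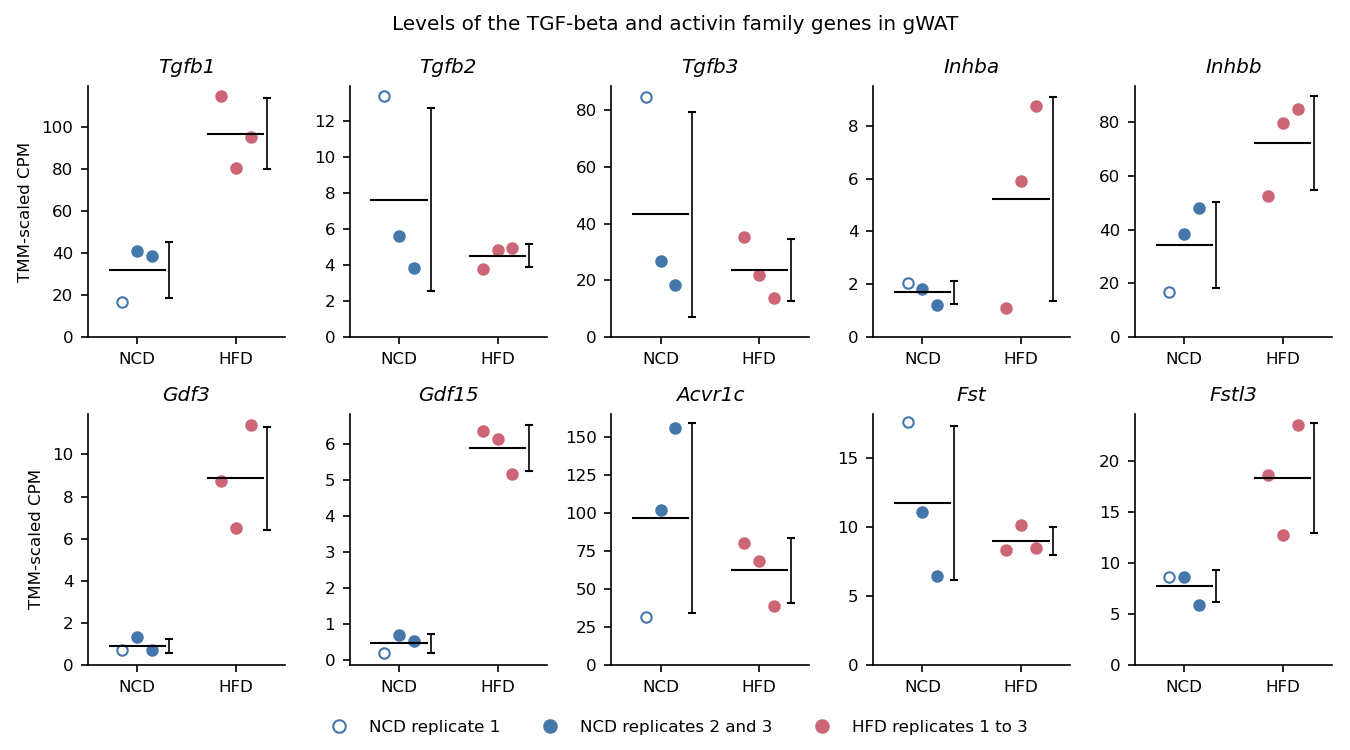
Level of each of the 10 genes in each library, in TMM-scaled CPM on a linear axis with its own scale per panel, for NCD and HFD; points are libraries, lines are means with SD (n = 3), and the open symbol is NCD replicate 1. The HFD points of Tgfb1, Inhbb, Gdf3, Gdf15 and Fstl3 lie above all NCD points, and NCD replicate 1 is the highest point for Tgfb2, Tgfb3 and Fst.

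Activin A is a dimer of the Inhba product and activin B of the Inhbb product. Inhbb (NCBI 16324, chr1:119415463-119422248) was at 16.6, 38.3 and 47.9 CPM on NCD and at 52.4, 79.4 and 84.9 CPM on HFD. The groups did not overlap, although the highest NCD and the lowest HFD library were near each other. The difference of 2.11-fold, a log2 fold change of 1.07 (SE 0.413), did not pass the test (edgeR adjusted p = 0.148), nor did the value of 0.76 without NCD replicate 1 (SE 0.248, edgeR adjusted p = 0.0821). DESeq2 without that library gave an adjusted p of 0.0223.

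Inhba (NCBI 16323, chr13:16004256-16031609) was at 2.04, 1.84 and 1.21 CPM on NCD and at 1.09, 5.90 and 8.73 CPM on HFD. HFD replicates 2 and 3 were above all NCD libraries, while HFD replicate 1 was the lowest of all 6. The log2 fold change of 1.63 (SE 0.728) had an edgeR adjusted p of 0.196, and the value of 1.80 without NCD replicate 1 had one of 0.186. HFD replicate 1 held the least Inhba and the highest macrophage marker sum of the 6 libraries, 2225 CPM.

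The growth and differentiation factors gave the 2 members called with all libraries. Gdf3 (NCBI 14562, chr6:122605403-122610087), a ligand that can signal through ALK7, received 24, 78 and 38 reads on NCD and 503, 542 and 715 reads on HFD. In CPM this was 0.730, 1.3 and 0.707 against 8.72, 6.49 and 11.4. The lowest HFD library was well above the highest NCD library. Gdf3 rose by a log2 fold change of 3.27 (SE 0.393, edgeR adjusted p = 0.0212), and by 3.15 without NCD replicate 1 (edgeR adjusted p = 0.00924).

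Gdf15 (NCBI 23886, chr8:70629393-70632470), a stress-induced factor that acts on the brainstem receptor GFRAL to lower food intake, received 6, 41 and 28 reads on NCD. On HFD it received 367, 514 and 324 reads. The levels were 0.183, 0.685 and 0.521 CPM against 6.36, 6.16 and 5.16 CPM, and the HFD libraries lay within a narrow range. Its log2 fold change was 3.64 (SE 0.512, edgeR adjusted p = 0.0224). The 9.83-fold difference without NCD replicate 1 had a smaller error, a log2 fold change of 3.30 (SE 0.283, edgeR adjusted p = 0.00544). Neither Gdf3 nor Gdf15 shared exon bases with another gene. Leaving out any library other than NCD replicate 1 raised the adjusted p of both above 0.05, with log2 fold changes of at least 3.06 for Gdf3 and 3.59 for Gdf15, and in those fits only 2 to 7 of all genes were called.

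Acvr1c (NCBI 269275, chr2:58267453-58357896), which encodes ALK7, was at 31.3, 102 and 156 CPM on NCD and at 80.2, 68.2 and 38.6 CPM on HFD. NCD replicates 2 and 3 were above all HFD libraries and NCD replicate 1 was the lowest of the 6. With all libraries the log2 fold change was -0.63 (SE 0.585, edgeR adjusted p = 0.50). When that library was left out the diets no longer overlapped and the value was -1.04 (SE 0.340), which missed the threshold (edgeR adjusted p = 0.0824), while DESeq2 gave an adjusted p of 0.0206. The adipocyte marker sum ordered the 6 libraries nearly as Acvr1c did, with NCD replicate 3 highest and NCD replicate 1 lowest in both.

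Of the ligand traps, Fstl3 (NCBI 83554, chr10:79777274-79782630), which binds activins and myostatin, was at 8.67, 8.64 and 5.90 CPM on NCD and at 18.7, 12.8 and 23.6 CPM on HFD. No HFD library was as low as an NCD library. The log2 fold change was 1.25 (SE 0.296, edgeR adjusted p = 0.0571), and Fstl3 rose without NCD replicate 1, by 1.35 (SE 0.323, edgeR adjusted p = 0.0380). Its exons share 1157 bases with Prss57 on the opposite strand, and whether the counting used strand is not known. Prss57 itself received 2 to 7 counts on NCD and 4 to 13 on HFD.

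Fst (NCBI 14313, chr13:114452262-114458989), which encodes follistatin, was at 17.6, 11.1 and 6.45 CPM on NCD and at 8.34, 10.1 and 8.46 CPM on HFD. The HFD libraries lay inside the NCD range. Its log2 fold change of -0.38 (SE 0.375, edgeR adjusted p = 0.522) became 0.05 without NCD replicate 1. Opposite-strand transcripts overlapped exons of Tgfb2, Tgfb3, Acvr1c and Fst by 115 to 257 bases each.

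With all libraries, 2 of the 10 members were called higher and 0 lower, against 7.47% of the 15241 genes tested (5.58% higher and 1.9% lower). Without NCD replicate 1 the count was 4 higher (Tgfb1, Gdf3, Gdf15 and Fstl3) and 0 lower, against 20.9% of 15510 genes (10.7% higher and 10.1% lower). DESeq2 with all libraries called the same 4 members, against 25.7% of genes (14.2% higher and 11.5% lower). On 5 libraries it called 6 members, those 4 and Inhbb higher and Acvr1c lower, against 34.8% of genes (18.1% higher and 16.7% lower). The diets did not overlap for 5 members, all higher on HFD, where 39.2% of all genes tested did not overlap (20.5% higher and 18.7% lower). On leaving out NCD replicate 1 these were 5 higher and 1 lower, Acvr1c, against 57.1% of genes (27.9% higher and 29.1% lower). The median log2 fold change over the members was 1.16, and -0.08 over all genes tested. Without NCD replicate 1 the medians were 1.03 and 0.02.

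**Figure D2:**
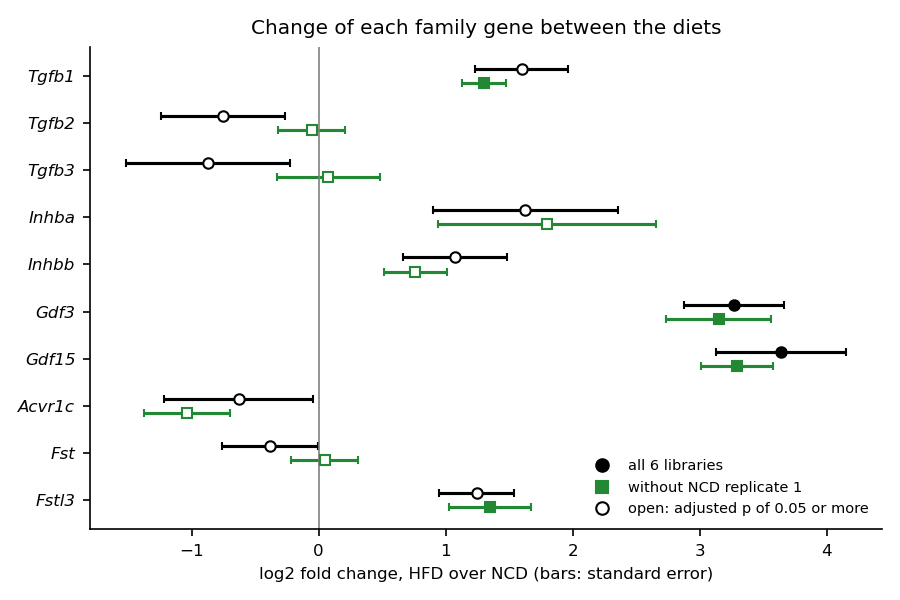
Log2 fold change (HFD over NCD) of each member with its SE, with all 6 libraries and without NCD replicate 1; filled symbols have an edgeR adjusted p under 0.05. Gdf3 and Gdf15 are filled in both fits, Tgfb1 and Fstl3 only without NCD replicate 1, and Tgfb3 and Fst change sign between the fits.

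Levels of different genes were compared per length, as TMM-scaled CPM per kilobase of exon (FPKM), in the order of their mean log2 level. On NCD, Tgfb1 led at 14.7 ± 6.16 FPKM (mean ± SD, n = 3), followed by Tgfb3 at 12.8 ± 10.7, Acvr1c at 10.5 ± 6.81 and Inhbb at 8.06 ± 3.77 FPKM. None of these 4 was above its next neighbour in every NCD library, so their order was within the spread. Fstl3 and Fst followed at 3.96 ± 0.816 and 4.13 ± 1.98 FPKM, also in changing order. Tgfb2 at 1.47 ± 0.976 FPKM was below Fst and above Gdf3 in each NCD library. Gdf3 at 0.430 ± 0.159, Inhba at 0.265 ± 0.0678 and Gdf15 at 0.250 ± 0.138 FPKM closed the order, and the last 2 could not be separated.

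On HFD, Tgfb1 stood alone at 44.5 ± 7.82 FPKM, above Inhbb at 17.0 ± 4.10 FPKM in 3 of 3 libraries. Inhbb was likewise above Fstl3, at 9.38 ± 2.78 FPKM, in each library. Tgfb3 at 7.0 ± 3.23 and Acvr1c at 6.79 ± 2.33 FPKM came next and changed places between libraries. Gdf3 at 4.17 ± 1.15 and Gdf15 at 3.18 ± 0.346 FPKM reached the level of Fst, 3.17 ± 0.353 FPKM. The order of Gdf15 and Fst was not settled, with Gdf15 higher in 1 of 3 libraries. Tgfb2 at 0.867 ± 0.122 and Inhba at 0.820 ± 0.604 FPKM were lowest.

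Ratios between members within a library do not depend on how libraries are scaled. Of 10 ratios of FPKM compared, 5 did not overlap between the diets. With 3 libraries against 3, the exact two-sided permutation test cannot give a p below 0.1, which each of these 5 had (0.2 adjusted over the 10 ratios). Some of these pairs share a member, so they are not separate results. The share of all gene pairs without overlap was not computed, and 39.2% of single genes tested did not overlap.

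Tgfb1 was 2.94, 17.3 and 23.8 times as high as Tgfb2 in the NCD libraries and 72.3, 39.8 and 46.2 times as high in the HFD libraries. The ratio of Tgfb1 to Tgfb3 was 0.303, 2.35 and 3.26 on NCD and 5.03, 5.70 and 10.8 on HFD. Tgfb3 was thus the higher of that pair in NCD replicate 1, and Tgfb1 in the other 5 libraries. The shifts in mean log2 ratio were 2.26 and 2.35, and 1.33 and 1.29 without NCD replicate 1. Tgfb2 to Tgfb3 overlapped, with a shift of 0.10 (-0.04 without that library).

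Fst was lower relative to Fstl3 in each HFD library than in any NCD library. The ratio of Fst to Fstl3 was 1.40, 0.885 and 0.755 on NCD and 0.308, 0.548 and 0.248 on HFD, a shift of -1.49 in mean log2 ratio (-1.24 without NCD replicate 1). Inhbb to Fst was 0.629, 2.30 and 4.94 on NCD and 4.18, 5.22 and 6.68 on HFD, which overlapped. Inhbb to Fstl3 also overlapped, at 0.879 to 3.73 against 1.29 to 2.86, with a shift of -0.04 (-0.59 without NCD replicate 1).

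For ligands against ALK7, Gdf3 to Acvr1c was 0.103, 0.0557 and 0.0198 on NCD and 0.470, 0.412 and 1.28 on HFD. Inhbb to Acvr1c was 1.15, 0.812 and 0.663 against 1.41, 2.51 and 4.75. Both ratios were higher in each HFD library than in any NCD library, by 3.70 and 1.59 in mean log2 ratio (4.24 and 1.80 without NCD replicate 1). HFD replicate 3 had the highest value of both. Inhba to Inhbb and Inhba to Fst overlapped between the diets.

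**Figure D3:**
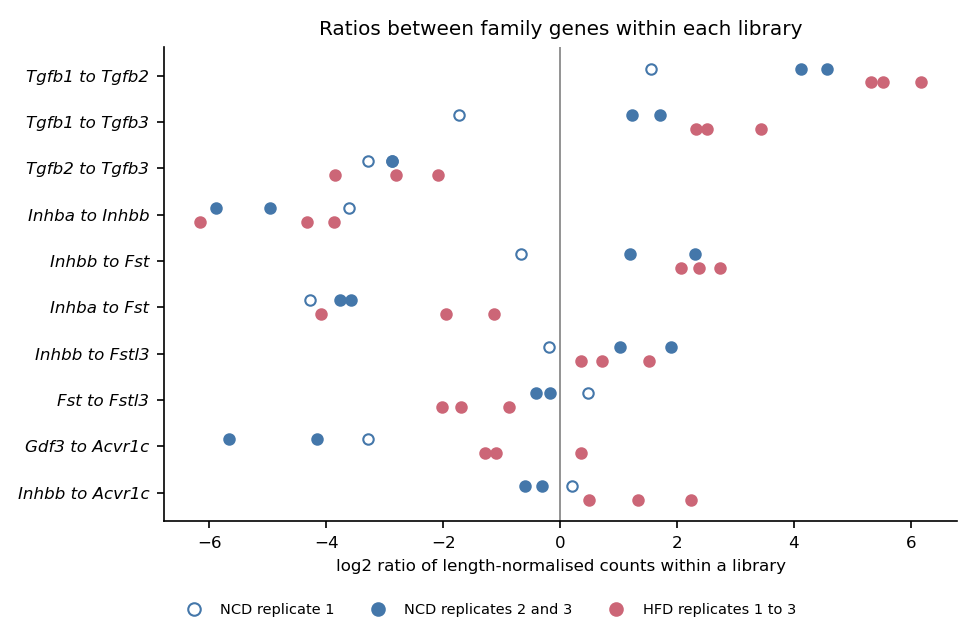
Log2 ratio of FPKM for 10 pairs of members in each library, NCD and HFD, with NCD replicate 1 as the open symbol. The HFD points of Tgfb1 to Tgfb2, Tgfb1 to Tgfb3, Gdf3 to Acvr1c and Inhbb to Acvr1c lie above all NCD points, and those of Fst to Fstl3 lie below.

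Since adipocyte and macrophage marker levels moved with diet, member levels were also set against them, as log2 CPM minus the mean log2 CPM of the 8 markers of a list. That measure was chosen after the values had been seen and carries no test. Of the macrophage markers, 4 of 8 rose with all libraries and 7 of 8 without NCD replicate 1. Of the adipocyte markers, 0 of 8 passed with all libraries and 5 of 8 fell without NCD replicate 1.

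Relative to the macrophage markers, Gdf3 was at -4.87, -5.09 and -5.66 on NCD and at -4.64, -4.29 and -3.83 on HFD (log2). Gdf15 was at -6.87, -6.02 and -6.10 against -5.10, -4.37 and -4.98. Both were still higher in every HFD library, by 0.95 and 1.52 on average (1.12 and 1.25 without NCD replicate 1), which is less than their differences in CPM. The macrophage markers moved unequally, with log2 fold changes of -0.07 for Cd163, 1.62 for Csf1r and 3.17 for Cd68. That of Cd68 was close to the 3.27 of Gdf3, and both separations depend on the markers averaged. Tgfb1 was at -0.37, -0.13 and 0.10 on NCD and at -0.93, -0.66 and -0.77 on HFD. Its HFD libraries were thus below all NCD libraries on this scale, with and without NCD replicate 1. This holds for the mean of the list, since its log2 fold change of 1.60 was close to the 1.62 of Csf1r. Inhbb and Fstl3 were lower by 1.17 and 1.13 on average in the same sense, with mean values of -1.22 and -3.21 on HFD and -0.05 and -2.09 on NCD, and they lay below the NCD libraries also without NCD replicate 1. The same held for Tgfb2, Tgfb3, Acvr1c and Fst, with differences of -2.91, -3.01, -2.76 and -2.62, while Inhba overlapped. The mean of the macrophage markers itself was higher on HFD by 2.35.

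Relative to the adipocyte markers, Acvr1c was at -3.58, -3.76 and -3.68 on NCD and at -2.73, -3.47 and -3.47 on HFD. The 3 NCD libraries, which ranged from 31.3 to 156 CPM, lay within a narrow range on this scale. The HFD libraries were slightly above them, by 0.45 on average (0.49 without NCD replicate 1). That shift is against the mean of markers that moved unequally, with log2 fold changes from -3.02 for Cfd to 0.10 for Pck1. Adipoq was at -0.16, above the -0.63 of Acvr1c itself, so the direction depends on the markers averaged. Tgfb1, Inhbb, Gdf3 and Gdf15 were higher in every HFD library relative to the adipocyte markers as well, by 2.55, 2.04, 4.16 and 4.73 (2.85, 2.30, 4.75 and 4.87 without NCD replicate 1). Without NCD replicate 1 every member was higher in each HFD library on this scale. Tgfb2, Tgfb3 and Fst were among them, by 1.52, 1.56 and 1.66. The mean of the adipocyte markers itself moved by -0.86 on HFD (-1.58 without NCD replicate 1). Which cells held the transcripts was not measured.

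**Figure D4:**
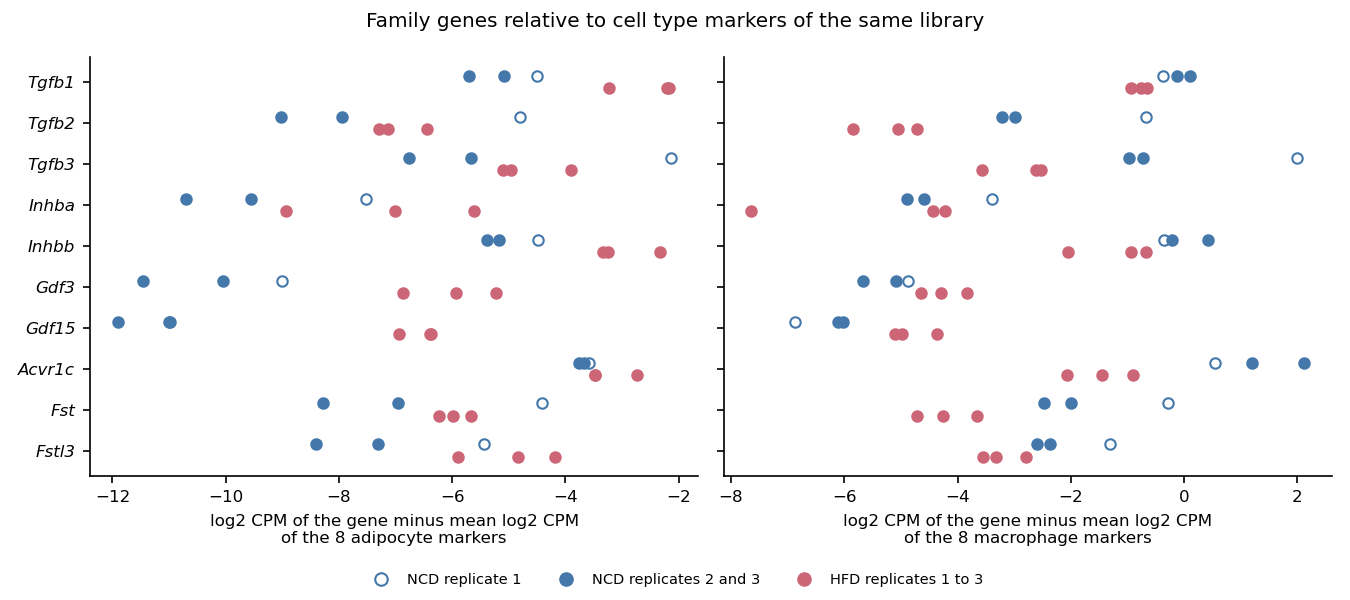
Member levels relative to adipocyte and to macrophage markers (log2 CPM minus the mean log2 CPM of 8 markers) in each library of NCD and HFD; the open symbol is NCD replicate 1. Gdf3 and Gdf15 lie higher on HFD on both scales, Tgfb1 lies higher against adipocyte and lower against macrophage markers, and the NCD points of Acvr1c coincide against the adipocyte markers.

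The rest of the pathway was read from 6 lists with 83 genes, of which 71 were tested. With all libraries 13 were called higher and 0 lower, where 5.58% of all genes tested were higher and 1.9% lower. Leaving out NCD replicate 1 gave 21 higher and 3 lower, where 10.7% of all genes were higher and 10.1% lower. The medians of the lists ranged from -0.20 for the intracellular mediators to 1.58 for the target genes, on the log2 scale, against the -0.08 of all genes.

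The genes that hold TGF-beta latent or free it had 6 of 12 tested genes higher and 0 lower in both fits, beside 5.58% of all genes higher with all libraries and 10.7% without NCD replicate 1. Thbs1, whose product thrombospondin-1 can activate latent TGF-beta, was at 29.9, 22.6 and 36.6 CPM on NCD and at 413, 514 and 824 CPM on HFD. It rose by a log2 fold change of 4.30 (SE 0.378, edgeR adjusted p = 0.0192), and by 4.32 without NCD replicate 1. Nrros and Lrrc32, which tether latent TGF-beta1 to the surface of myeloid cells and of regulatory T cells and platelets, rose by 2.14 and 1.53. The fibrillin gene Fbn1 rose by 2.16, the protease gene Bmp1 by 1.5 and the integrin subunit gene Itgav by 0.94 (edgeR adjusted p from 0.0223 to 0.0425 for these 5).

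The 12 target genes tested held 4 that rose with all libraries, beside 5.58% of all genes, and 8 that did not pass. Among the 4 were the collagen genes Col1a1 by 2.11 and Col1a2 by 1.52 and the matrix gene Postn by 2.03 (edgeR adjusted p from 0.0194 to 0.0398 for these 3). Col1a1 was at 106 to 141 CPM on NCD and 491 to 597 CPM on HFD. There were 7 without NCD replicate 1, with Col3a1, Fn1 and Timp1 added at log2 fold changes of 1.34, 1.33 and 4.53. Acta2, also a smooth muscle gene, was at 1397, 181 and 59.1 CPM on NCD and at 99.0 to 179 CPM on HFD and did not pass in either fit. In NCD replicate 1 its level stood beside the high smooth muscle marker sum. Pmepa1, Ccn2 and Tagln had log2 fold changes of -0.54, -0.09 and -2.76 with all libraries. Without NCD replicate 1 the values were -0.996, 0.59 and -0.67, and these genes passed in neither fit. Tgfbi was at 2.48 with all libraries and 2.25 without NCD replicate 1 (edgeR adjusted p = 0.0528 and 0.0504).

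Of 14 receptors and co-receptors 0 were called with all libraries, where Tgfbr2 at 120 ± 25.3 against 224 ± 30.9 CPM had an edgeR adjusted p of 0.0613. Without NCD replicate 1, Tgfbr2, Eng and Acvrl1 rose by 0.76, 0.71 and 0.72, and Bmpr1b had a log2 fold change of -2.61 (edgeR adjusted p = 0.0401). Bmpr1b was at 32.0 CPM in NCD replicate 1, 3.54 and 1.23 CPM in the other NCD libraries and at most 0.485 CPM on HFD. The activin receptor gene Acvr1b, whose product ALK4 is the usual partner of activins, was at 23.5 ± 2.40 against 50.3 ± 16.8 CPM (edgeR adjusted p = 0.0671, and 0.0557 without NCD replicate 1). The gene of the GDF15 receptor, Gfral, was listed but had no entry by that name in the read counts.

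Of 15 intracellular mediators and inhibitors, 0 were called with all libraries, and Smad2, Smad3 and Smad4 had log2 fold changes of -0.20, 0.16 and -0.54. The co-repressor genes Tgif1 and Skil rose without NCD replicate 1, by 1.90 and 0.82, and Smad9 had a log2 fold change of -2.76 (edgeR adjusted p = 0.0306). Tgif1 was at 28.0 CPM in NCD replicate 1, inside the HFD range of 22.0 to 30.3 CPM. It was at 7.87 and 6.40 CPM in NCD replicates 2 and 3, and its log2 fold change with all libraries was 0.90. Like Bmpr1b, Smad9 was far higher in NCD replicate 1, at 48.8 CPM, than in any other library, where it was at most 5.15 CPM. Smad9 was at 5.15 CPM in NCD replicate 2, 1.88 CPM in NCD replicate 3 and at most 0.683 CPM on HFD. The fit without NCD replicate 1 keeps NCD replicate 2, with 11.2% of counts on seminal vesicle genes. The part of such RNA in the Smad9 and Bmpr1b differences was not tested. Ski was the most abundant of that list at 21.8 FPKM over all libraries.

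Among 12 other ligands tested, Bmp3 rose, from 1.80, 6.80 and 11.6 CPM on NCD to 78.7, 67.2 and 63.3 CPM on HFD, a log2 fold change of 3.36 (SE 0.647, edgeR adjusted p = 0.0375), and of 2.93 without NCD replicate 1. Gdf10 fell without NCD replicate 1, by 1.84 on the log2 scale, and Bmp4, which had the highest FPKM of the list averaged over all 6 libraries, had a log2 fold change of -0.06. Of 6 other extracellular antagonists, the proteoglycan gene Bgn and the follistatin-like gene Fstl1 rose by 1.68 and 1.79. Dcn, the most abundant at 333 FPKM, did not pass in either fit.

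**Figure D5:**
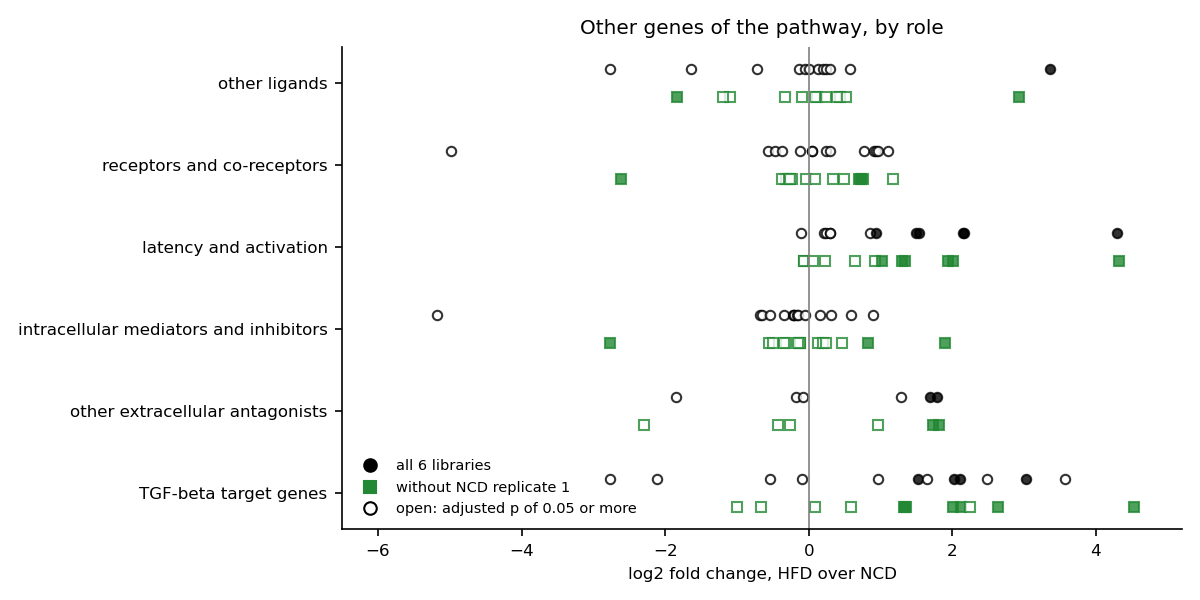
Log2 fold change (HFD over NCD) of every tested gene of the 6 pathway lists, with all 6 libraries (circles) and without NCD replicate 1 (squares); filled symbols have an edgeR adjusted p under 0.05. With all libraries 6 latency and activation genes and 4 target genes are filled, all to the right of 0, and no receptor or intracellular mediator is filled.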

How the data were processed

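Per the labels, RNA of gWAT from mice on NCD or HFD was made into TruSeq Stranded mRNA libraries; the study's methods name the kit without that word. The table deposited by the authors holds unnormalized read counts for each NCBI gene identifier and library. The submitters' processing notes list bcl2fastq 2.20.0, Trimmomatic, HISAT2 2.1.0, StringTie 1.3.4d and DESeq2 and the build GRCm38 (mm10), with no roles. How strand was set in counting is not given in these sources. The third HFD replicate carries another number in its column name.

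Names came from NCBI's GRCm38.p6 annotation (19742 of 19790 identifiers; the other 48 held 0.629% of counts) and exon lengths from GENCODE basic transcripts of the same build (17794 genes; genes without a length held 1.05% of counts). Genes with low counts were removed (filterByExpr, at least 10 counts in enough libraries and 15 in total), and the rest were TMM-scaled and tested by glmQLFit and glmQLFTest in edgeR 4.0.16 (R 4.3.3) over 15241 genes, with Benjamini-Hochberg adjustment and a threshold of 0.05. The common biological coefficient of variation was 0.424. An SE was obtained from the log2 fold change and the square root of its F statistic. For ratios, 0.5 was added to each count. Exact permutation tests used scipy 1.17.1, and figures matplotlib 3.10.9. The test was tried on simulated counts. No 2 libraries of the same diet agreed within sampling noise.

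Alternatives were other filters (no filter, or a mean CPM of at least 1), median-of-ratios scaling, total counts alone, TMM without the 11 seminal vesicle genes, DESeq2 1.42.0, limma 3.58.1 on log2(FPKM + 1), a replicate block, and each library left out in turn. A fit without NCD replicates 1 and 2, and levels relative to markers, were added with the data in view. The members and the gene lists were chosen with earlier results of these data known. All 10 members are named. Of each pathway list, the genes called with all libraries, the 3 of lowest adjusted p without NCD replicate 1 and the one of highest mean FPKM were to be named; 1 of them is not reported here. Acvr1b, Acta2, Pmepa1, Ccn2, Tagln, Tgfbi, Smad2, Smad3, Smad4 and Prss57 were named after their values had been seen. So were the single cell type markers and the further genes called without NCD replicate 1.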

Additional observations from a re-analysis of the deposited data

How the results depend on the processing

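The number of members past the threshold was 2 with edgeR on all libraries, 4 with DESeq2, 0 with a replicate block and 0 to 4 with 1 library left out (4 without NCD replicate 1 and 0 without any other). The same settings moved the count over all genes from 1139 to 3904, 12 and 2 to 3234, and that of pathway genes from 13 to 29, 0 and 0 to 24. Total counts alone and limma on log2(FPKM + 1) each called 3 members, with Fstl3 added, where 959 and 931 of all genes passed. The share of higher genes among all calls was 74.6%, 55.1% with DESeq2, 51.5% without NCD replicate 1 and 93.9% with limma on log2(FPKM + 1). Without NCD replicates 1 and 2, a fit chosen after seeing the data in which the single NCD library is assumed to vary like the others, 529 genes, 6 pathway genes and 2 members passed. Without NCD replicate 1, DESeq2 called 6 members where edgeR called 4. The replicate numbers do not pair the libraries (correlations of deviations between -0.05 and -0.01), and no library correlated best with its own number.

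Tgfb1, Inhba, Inhbb, Gdf3, Gdf15 and Fstl3 kept a positive log2 fold change in all 15 alternatives. Gdf3 ranged from 2.13 to 3.73 and Gdf15 from 1.99 to 4.03, with adjusted p-values up to 0.0971 and 0.0978. Signs turned for members that none of these 15 called. With total counts alone Tgfb2 was at 0.015 and Fst at 0.30, where the median of all genes was 0.44. With limma on log2(FPKM + 1) Tgfb2 was at 0.010, Acvr1c at 0.062 and Fst at 0.24, with a median of 0.37. With 1 library left out Tgfb3 ranged from -1.26 to 0.076 and Fst from -0.65 to 0.049, both positive without NCD replicate 1 alone, and without NCD replicates 1 and 2 Tgfb2 was at 0.24, Tgfb3 at 0.37 and Fst at 0.48. The cause was not tested. Between 5 and 8 of the 10 ratios did not overlap with 1 library left out, with 8 without HFD replicate 1. Gdf15 rested on 6 to 41 reads in each NCD library, so counting error adds most to its NCD level.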
